A study of Mus musculus with 18 samples.

Results

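Integrins are the receptors that tie a fibroblast to its matrix, and focal adhesions are the protein plaques that link them to the actin cytoskeleton. This account follows 35 such genes through knockdown of Chst7 and through early cardiac reprogramming of mouse fibroblasts. The genes were taken by name, not by a cut on measured values, from a deposited table of 24514 genes. The list was drawn up with earlier results of these data known. They are 11 integrin alpha subunits, 6 beta subunits, 3 activators (Tln1, Tln2, Fermt2), 5 genes of the ILK, PINCH and parvin complex, 3 signalling scaffolds (Ptk2, Pxn, Bcar1) and 7 actin linkers. All 35 were among the 13802 genes with enough counts to be tested.

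The cells were the iMGT-Myh6-eGFP-MEF line, mouse embryonic fibroblasts in which doxycycline switches on Mef2c, Gata4 and Tbx5 (together MGT), and whose name also carries an eGFP reporter of the cardiac gene Myh6. Every group used this 1 line, so that factor transgenes and reporter are shared by all of them. Cells were plated on the eve of day 0 and transfected with an siRNA against Chst7 (siChst7), a Golgi sulfotransferase of glycosaminoglycan synthesis, or with a control siRNA (siControl). Day 0 cells had no doxycycline, and day 1 and day 3 cells had it at 1 µg/mL for that time. Each of the 6 groups had 3 libraries, 18 in all, labelled as biological replicates, each of cells pooled from 40 wells. Uninduced cells at days 1 and 3 were not analysed here, so that factor induction, time in culture and time since transfection cannot be told apart in the time course.

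As background, an integrin is a pair of 1 alpha and 1 beta chain, and the pair sets the ligand. Alpha chains Itga1, Itga2 and Itga11 pair with Itgb1 to bind collagen, Itga3, Itga6 and Itga7 bind laminin, and Itga5, Itga8 and Itgav belong to receptors that read the RGD motif of fibronectin and vitronectin. Talins and kindlins bind the beta tail and switch the receptor on. The ILK, PINCH and parvin complex, FAK (Ptk2), paxillin and p130Cas then carry the signal, while vinculin, alpha-actinins, filamin, zyxin and tensins connect the plaque to actin. Many of the actin linkers are textbook targets of serum response factor, which binds a motif called the CArG box.

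Promoter sequences of 26 of the 35 genes were found in RefSeq (GRCm38.p6), each covering 250 bases before to 50 bases after a transcription start. A CArG box was found in 2 of these 26 genes, Vcl and Fermt2, searched on both strands. Both are printed because both genes were lower with siChst7 at day 0, with the box in capitals. The Vcl promoter lies at chr14:20929148-20929447 on the plus strand, with its box starting 227 bases before the start site. The Fermt2 promoter lies at chr14:45530016-45530315 on the minus strand, with its box 204 bases before the start site used. Fermt2 is annotated up to position 45530310, so that this start site and the box both lie inside its annotated span.
Vcl: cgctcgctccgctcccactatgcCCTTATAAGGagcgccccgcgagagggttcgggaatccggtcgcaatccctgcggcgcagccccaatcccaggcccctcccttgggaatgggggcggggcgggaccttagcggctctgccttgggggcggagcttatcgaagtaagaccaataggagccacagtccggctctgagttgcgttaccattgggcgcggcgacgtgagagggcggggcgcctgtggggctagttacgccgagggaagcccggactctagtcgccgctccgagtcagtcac
Fermt2: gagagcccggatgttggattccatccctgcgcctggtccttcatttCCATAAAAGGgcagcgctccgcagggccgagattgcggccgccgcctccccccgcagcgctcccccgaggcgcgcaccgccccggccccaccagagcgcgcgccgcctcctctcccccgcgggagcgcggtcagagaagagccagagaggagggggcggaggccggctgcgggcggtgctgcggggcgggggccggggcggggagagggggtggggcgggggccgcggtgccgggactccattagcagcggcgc
The CArG box was present in 2 of 31 promoters of the 35 genes (some genes have several) and in 1.63% of all 32851 promoters of the same length. The motif GGAATG, the core of TEAD sites, was in 4 of the 31, those of Actn4, Flna, Itgb1 and Vcl, and in 14.7% of all. The AP-1 motif TGANTCA was in 4, those of Actn4, Itga3, Itga9 and Zyx, and in 7.81% of all. Both strands were read for each motif, and a match describes letters only, not binding.

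Counts per library ran from 30590742 to 50021142. Chst7 itself was low in every siChst7 library, at 0.238 to 2.96 CPM (counts scaled to library size) against 18.6 to 40.4 CPM in siControl. The delivered factors Mef2c, Gata4 and Tbx5 were each called lower with siChst7 at day 3. Mef2c stood at 249 ± 17.4 against 322 ± 3.43 CPM in siControl (SD, n = 3). Gata4 stood at 352 ± 24.4 against 451 ± 11.8 CPM and Tbx5 at 591 ± 28.3 against 743 ± 2.96 CPM. Fibroblast markers were abundant, led by Vim, at a summed 6622 to 12707 CPM, but Thy1, a usual surface marker of fibroblasts, stood at 0 to 0.445 CPM. When the counts of replicates were compared in pairs, chi-square over its degrees of freedom ran from 2.93 to 5.36. The pairs of siChst7 at day 3 gave 21.9 to 57.5, and those with replicate 3 of the siChst7 cells at day 0 gave 14.8 and 15.2. Replicate 1 of siChst7 at day 3 had 1.96% of its counts in the ribosomal precursor Rn45s, against 0.131% to 0.654% in the other 17 libraries. The counts of called adhesion genes in comparisons that use these libraries are given without them as well, whereas counts over the other pathway lists were not recomputed without them. The 3 siControl libraries of a day enter every comparison of that day, so comparisons share libraries, and their values are only set side by side.

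The starting cells were fibroblasts whose integrin messages were mostly Itgb1 among the beta chains and Itga5 and Itgav among the alpha chains. Levels between genes are compared here as TPM, which divide counts by gene length before scaling to the library. In siControl at day 0, Itgb1 stood at 1021 ± 20.3 TPM (SD, n = 3) and made up 86.6% ± 0.627 of the summed beta subunits. Itga5 (198 ± 9.47 TPM) and Itgav (169.6 ± 3.43 TPM) together with Itga8 gave 87.3% ± 0.449 of the alpha sum. Itga7, the laminin receptor chain best known from muscle, had 30.6 ± 0.9 TPM and Itga3 16.3 ± 0.314 TPM. The plaque was richest in Flna (1374 ± 4.15 TPM), Actn1 (1228 ± 9.05 TPM) and Actn4 (765 ± 6.63 TPM), while Tns1 stood at 5.61 ± 0.234 TPM. Itga2, Itga4, Itga9, Itga11, Itgb3 and Itgb4 averaged below 1 CPM over all libraries.

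**Figure D1:**
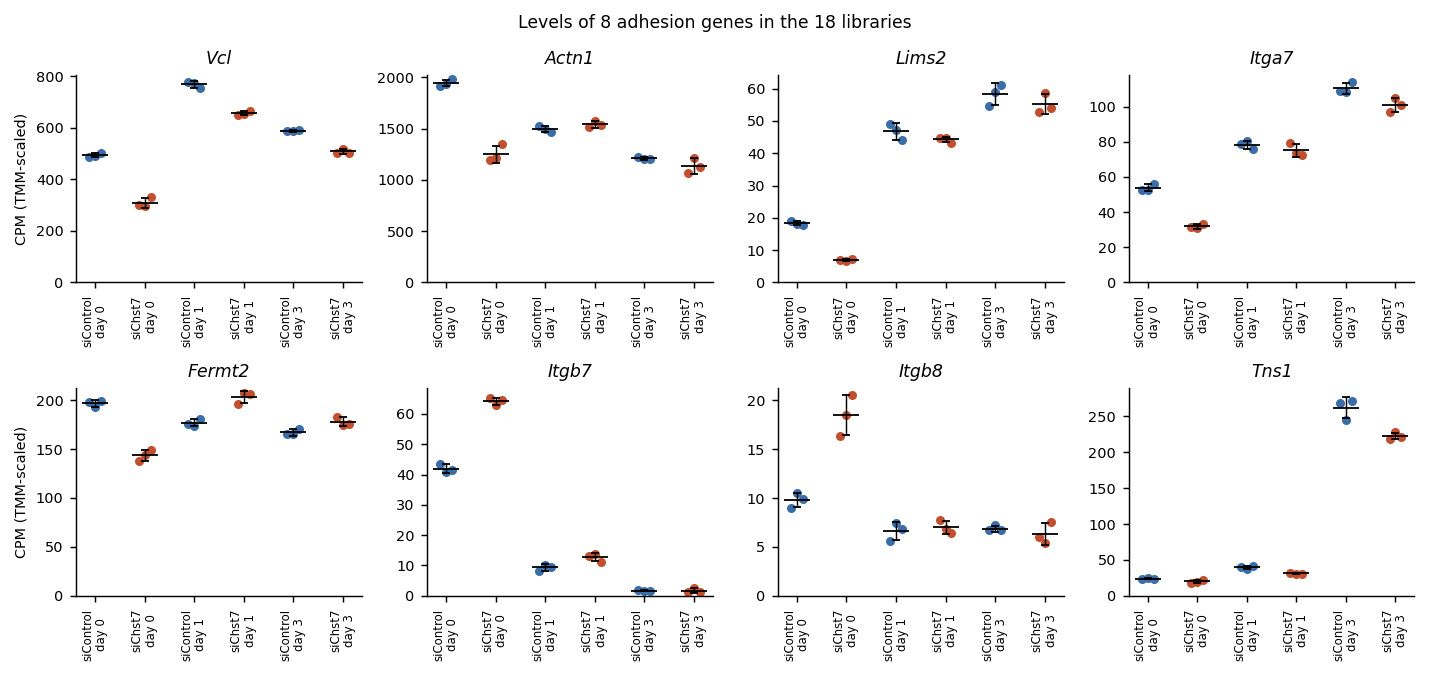
Levels of 8 adhesion genes in CPM (linear axis from 0, TMM-scaled) in the 18 libraries, siControl in blue and siChst7 in red at days 0, 1 and 3. Each point is a library, the long line is the mean of 3 and the bar is the SD. Lims2, Itga7, Vcl, Actn1 and Fermt2 sit lower with siChst7 at day 0 and Itgb7 and Itgb8 sit higher, while the gaps at days 1 and 3 are smaller.

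Before doxycycline, knockdown of Chst7 came with lower transcripts of most of the adhesion plaque. At day 0, 20 of the 35 genes were lower and 6 higher in siChst7 than in siControl (edgeR quasi-likelihood F-test, Benjamini-Hochberg adjusted p below 0.05 over all genes tested, used for every call here). Over all genes tested, 13.5% were lower and 13.9% higher. The median log2 fold change (log2FC) of the 35 was -0.23 against 0.01 for all genes tested. In bulk RNA, fewer cells of a kind and less RNA per cell cannot be told apart. All 7 actin linkers and all 3 activators were lower, whereas the beta subunits parted, with Itgb1 lower and Itgb5, Itgb7 and Itgb8 higher. Scaling by library totals left 15 lower and 6 higher. Without replicate 3 of siChst7, the library that stood apart, 20 were lower and 3 higher, and without replicate 3 of siControl the counts were 19 and 3.

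Among the actin linkers, vinculin and alpha-actinin 1 had the largest differences. Vcl (chromosome 14, 20929383 to 21033676, GRCm38), which reinforces talin's hold on actin under load and whose CArG-box promoter is printed above, had 487, 491 and 504 CPM in siControl and 302, 295 and 331 CPM with siChst7. Every siChst7 library lay below every control, a log2FC of -0.67 ± 0.04 (SE; edgeR adjusted p = 2.67e-11). Exons of Ap3m1 on the other strand share 2090 bases with Vcl, and the strand setting of the counting is not given, so that reads of the 2 genes cannot be told apart there. Actn1 (chromosome 12, 80167542 to 80260420), a crosslinker of stress fibres, had 1916, 1935 and 1980.3 CPM against 1193, 1209.9 and 1346 CPM. Its log2FC was -0.64 ± 0.05 (edgeR adjusted p = 1.44e-09), with no overlap. Flna, the most abundant plaque gene and an actin crosslinker that also binds integrin tails, went from 4817, 4882 and 4903 CPM to 3511, 3497 and 3806 CPM (-0.43 ± 0.04, edgeR adjusted p = 3.94e-08). Actn4 (-0.49 ± 0.05), the tension-sensing LIM protein gene Zyx (-0.36 ± 0.05) and the tensins Tns1 (-0.25 ± 0.07) and Tns3 (-0.19 ± 0.04) were also lower.

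The activators of integrins fell together at day 0. Fermt2, which encodes kindlin-2 and whose promoter is printed above, had 198, 193 and 199 CPM in siControl and 138, 144 and 149 CPM with siChst7. The groups were well apart, at a log2FC of -0.46 ± 0.04 (edgeR adjusted p = 7.81e-09). Tln1, the main talin of fibroblasts, had 1248, 1214 and 1201 CPM against 937, 942 and 1049 CPM. That is a log2FC of -0.32 ± 0.05 (edgeR adjusted p = 4.02e-05), and 360 of its exon bases overlap Creb3 on the other strand. Tln2, its paralogue of striated muscle and brain, was lower by a similar step (-0.45 ± 0.05).

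In the ILK, PINCH and parvin complex the 2 PINCH genes and the 2 parvin genes behaved unlike each other. Lims2, which encodes PINCH-2, had 19.1, 18.2 and 17.8 CPM in siControl and 6.88, 6.61 and 7.3 CPM with siChst7. Its log2FC of -1.403 ± 0.07 (edgeR adjusted p = 1.17e-12) was the lowest of the 35. Lims1, which encodes PINCH-1 and was the more abundant of the pair, stood at 457 ± 11.1 and 452 ± 16.4 CPM (SD, n = 3; log2FC -0.02 ± 0.05, edgeR adjusted p = 0.841). Parva, the alpha-parvin that joins ILK to actin, was lower (-0.43 ± 0.05). Parvb, the beta-parvin, was higher, with 30.8, 27.6 and 29 CPM against 40.9, 41.4 and 44.4 CPM and a log2FC of 0.54 ± 0.08 (edgeR adjusted p = 2.14e-05). Ilk, the pseudokinase at the centre of the complex, had 224, 227 and 237 CPM against 195, 189.6 and 171 CPM. No library overlapped the other group, at -0.31 ± 0.05 (edgeR adjusted p = 3.11e-05). Ilk shares 2106 exon bases with Taf10 and 355 with Rrp8 on the other strand.

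The signalling scaffolds moved little at day 0. Bcar1, the stretch-sensitive scaffold p130Cas, had 271, 256 and 262 CPM against 223, 229 and 239.7 CPM. Its groups were apart at a log2FC of -0.19 ± 0.05 (edgeR adjusted p = 0.00722), a call lost with library totals (-0.13, edgeR adjusted p = 0.0934). Pxn, the paxillin hub of the plaque, was higher, with 91.6, 93.1 and 87.1 CPM against 99.5, 98.4 and 111 CPM and a log2FC of 0.18 ± 0.05 (edgeR adjusted p = 0.014). Without replicate 3 of siControl or replicate 3 of siChst7 at day 0 it was no longer called (edgeR adjusted p up to 0.102). Ptk2, the kinase FAK, stood at 99.2 ± 1.51 and 94.6 ± 4.99 CPM (log2FC -0.07 ± 0.04, edgeR adjusted p = 0.263).

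Among the alpha subunits of at least 5 CPM the laminin chain Itga7 had the largest difference at day 0. Itga7 (chromosome 10, 128933421 to 128958286) had 52.5, 52.7 and 56.1 CPM in siControl and 31.6, 30.7 and 33.5 CPM with siChst7. The log2FC was -0.75 ± 0.05 (edgeR adjusted p = 2.25e-10), with the groups far apart. The other laminin chains were Itga6, lower at -0.23 ± 0.08, and Itga3, not called at 0.08 ± 0.05. Itga5 had 391, 362 and 369.9 CPM against 304, 306 and 338 CPM, lower in all 3 libraries (-0.24 ± 0.05, edgeR adjusted p = 0.000606). Itga8, an RGD chain of smooth muscle and mesenchyme, was lower at a low level (2.22 ± 0.148 against 1.45 ± 0.276 CPM, log2FC -0.60 ± 0.16). Itgav, the vitronectin receptor chain, stood at 506 ± 7.03 and 470.4 ± 24 CPM and missed the threshold (edgeR adjusted p = 0.0583).

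The collagen chains parted. Itga1 was lower at day 0, with 3.8, 3.52 and 4.28 CPM against 3.17, 2.96 and 2.88 CPM. Its log2FC of -0.36 ± 0.12 (edgeR adjusted p = 0.0327) lost its call without replicate 1 or 3 of siControl or replicate 2 or 3 of siChst7, with library totals and with only the libraries compared (edgeR adjusted p = 0.0511 to 0.156). Itga11, the fibroblast collagen receptor chain, was higher (0.91 ± 0.30) on 25 to 86 counts per library. Itga2, Itga4 and Itga9 were not called, at 0 to 14 counts per library.

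The beta subunits other than Itgb1 rose or were not called. Itgb8 (chromosome 12, 119162803 to 119238276), which pairs with Itgav in a receptor that activates latent TGF-beta, had 9.01, 10.5 and 9.92 CPM in siControl and 16.4, 18.5 and 20.5 CPM with siChst7. Every siChst7 library lay above every control, at a log2FC of 0.91 ± 0.11 (edgeR adjusted p = 1.97e-06). Itgb7 (chromosome 15, 102215994 to 102233405), a beta chain known from lymphocytes, had 43.5, 40.8 and 41.6 CPM against 65.2, 62.8 and 64.5 CPM, a log2FC of 0.61 ± 0.10 (edgeR adjusted p = 7.78e-05). Itgb5, another partner of Itgav, was higher at 0.17 ± 0.05. Itgb1 went from 1752, 1836 and 1847 CPM to 1603, 1668 and 1627 CPM. Those groups did not overlap (-0.15 ± 0.04, edgeR adjusted p = 0.0036), but the call was lost with library totals (edgeR adjusted p = 0.132). Itgb3 and Itgb4 were not called, at 5 to 40 counts per library.

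Both partners that Itgb7 is known to bind were low in these cells, a check added after the values were seen. Itga4 had 0.0446 to 0.0886 CPM in siControl at day 0 and Itgae had 1.41 to 2.37 CPM. The 9 leukocyte markers summed to 22.5 to 25.9 CPM in siControl and to 28.6 to 28.7 CPM with siChst7 at day 0, most of it from Cd68. Adgre1 was at 0 in both groups, and Ptprc, which defines leukocytes, was at 0 to 0.184 CPM. Of the 6 leukocyte markers tested, 1 was higher and 0 were lower at day 0.

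**Figure D2:**
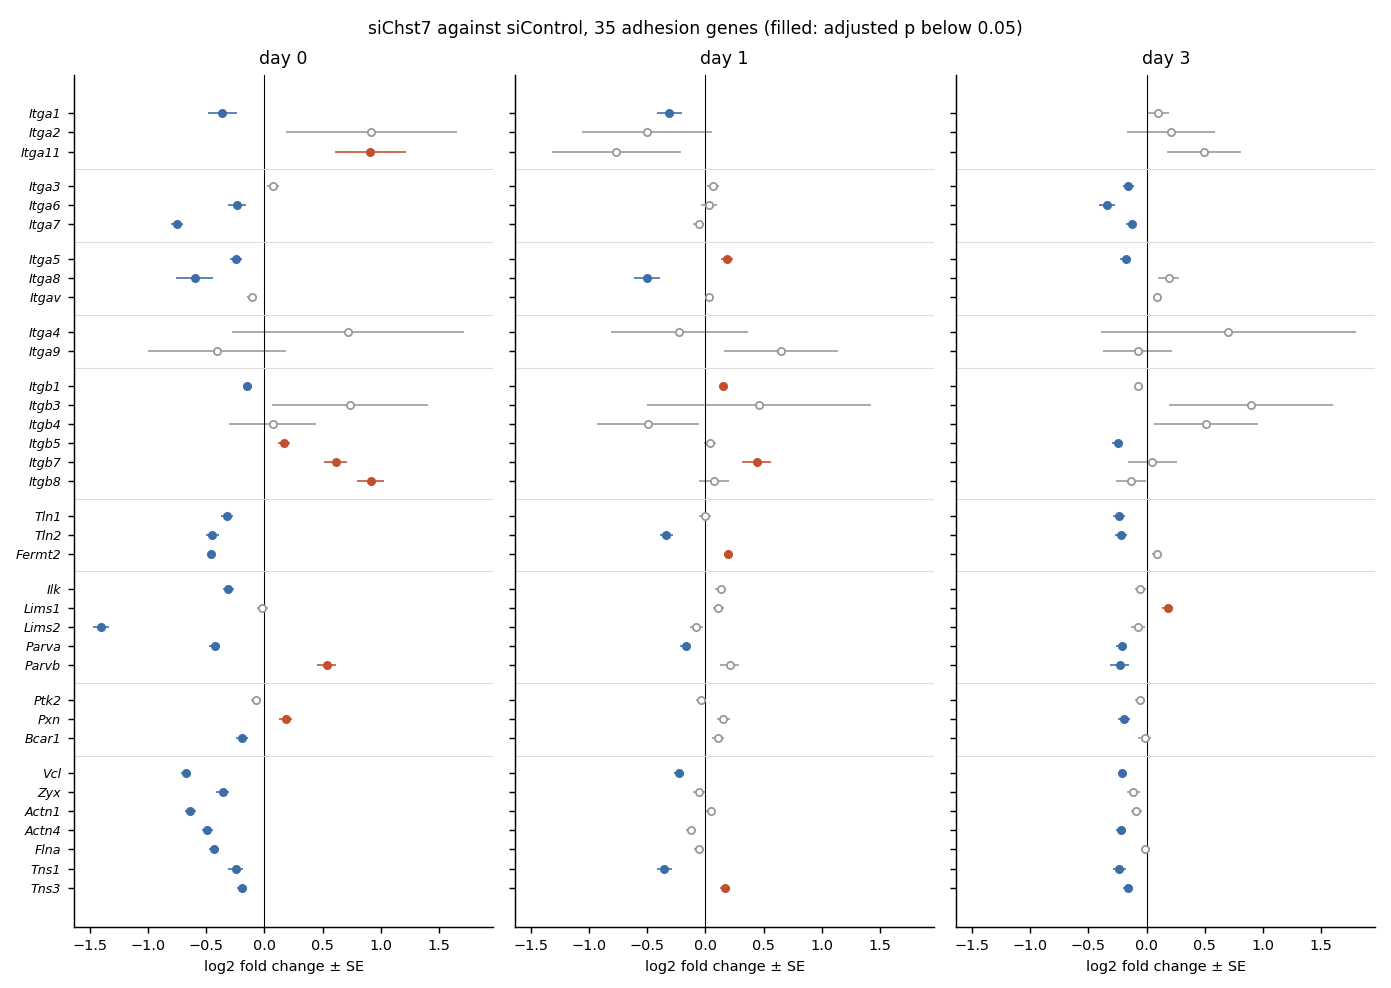
Log2FC of siChst7 against siControl for the 35 genes at days 0, 1 and 3, on 1 shared horizontal axis, with bars of 1 SE and thin lines between role groups. Filled points were called (red higher, blue lower) and open points were not. At day 0, 20 genes lie filled on the left, against 6 at day 1 and 14 at day 3.

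Other genes of the adhesion pathway, from lists that leave out the 35, are given by the same calls. They stand beside 13.5% lower and 13.9% higher of all genes tested at day 0. Of 20 actin partners tested, 15 were lower and 0 higher at day 0, with a median log2FC of -0.395. They include Pdlim5 (-0.89 ± 0.04), an alpha-actinin partner, and the myosin light chain gene Myl9 (-0.97 ± 0.06), while Svil, an actin and myosin binder, did not pass (-0.10 ± 0.04, edgeR adjusted p = 0.0525) but did without replicate 3 of either group. Of 23 signalling partners, 12 were lower and 0 higher, such as the proteoglycan co-receptor Sdc4 (-0.395 ± 0.04), the kinase Fyn (-0.54 ± 0.06) and the p130Cas relative Nedd9 (-0.53 ± 0.06). Of 22 ligands tested, 6 were lower and 9 higher. The matricellular ligands Ccn1 (-0.92 ± 0.04) and Ccn2 (-0.95 ± 0.05) and nephronectin, the ligand of Itga8, encoded by Npnt (-0.82 ± 0.05), were lower, and fibronectin, Fn1, did not pass (-0.05 ± 0.05, edgeR adjusted p = 0.46) except without replicate 3 of siChst7 (-0.12, edgeR adjusted p = 0.016). Of the 5 smooth muscle markers, 3 were lower and 0 higher. They summed to 1347 to 1474 CPM in siControl and 523 to 587 CPM with siChst7. Most of that sum was Acta2, at 1294 ± 69.9 and 468 ± 30.2 CPM. Myh11 went the other way without a call, at 0.114 ± 0.102 and 0.303 ± 0.104 CPM. The 6 cardiomyocyte markers summed to 11.2 to 13.4 and 23.7 to 24.6 CPM, led by Tnnt2, with Actn2 at 0 and 1 of 5 tested higher. The part of these markers in the result was not tested.

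After 1 day of doxycycline the knockdown difference in these genes was small and ran both ways. At day 1, 5 of the 35 were higher and 6 lower with siChst7, where 8.86% of all genes tested were higher and 8.72% lower. The median log2FC was 0.03 against 0.01 for all genes. A fit of the compared libraries alone called 10 higher and 8 lower of 33 tested, and no filter on low counts gave 8 and 6.

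Vcl was again lower at day 1, with 779, 774 and 754 CPM in siControl against 649, 655 and 666 CPM with siChst7 (log2FC -0.23 ± 0.04, edgeR adjusted p = 0.000278). Tns1 had 39.9, 37.8 and 41.8 CPM against 31.9, 30.7 and 30.9 CPM. It was lower in every library, at -0.355 ± 0.06 (edgeR adjusted p = 0.000423). Tln2 had 46.3, 44.4 and 41.2 CPM against 33.9, 34.9 and 35.6 CPM, also with no overlap (-0.34 ± 0.055, edgeR adjusted p = 0.000144). Parva was lower by a smaller step (-0.17 ± 0.05). Itga8 had 8.91, 7.53 and 9.13 CPM against 5.7, 5.21 and 7.17 CPM, a narrow gap between groups, at -0.50 ± 0.11 (edgeR adjusted p = 0.00281). Itga1 had 9, 9.11 and 8.14 CPM against 6.94, 6.14 and 8.11 CPM, so that its highest siChst7 library nearly reached the lowest control. Its call (-0.31 ± 0.11, edgeR adjusted p = 0.045) was lost without replicate 1 or 2 of either group and with the length trend removed (edgeR adjusted p = 0.0518 to 0.224).

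Fermt2 was higher at day 1, the reverse of day 0. It had 176, 174 and 181 CPM in siControl and 196, 207 and 206 CPM with siChst7, with all siChst7 libraries above all controls, at a log2FC of 0.20 ± 0.04 (edgeR adjusted p = 0.000893). Tns3 had 477, 489 and 476 CPM against 545, 534 and 539 CPM (0.165 ± 0.04, edgeR adjusted p = 0.0092). Itgb1 had 2182, 2251 and 2269 CPM against 2429.9, 2493 and 2529.6 CPM. Its groups did not overlap (0.15 ± 0.04, edgeR adjusted p = 0.005). Itga5, its fibronectin-binding partner, had 404, 400.1 and 389.8 CPM against 447, 467 and 443 CPM (0.185 ± 0.05, edgeR adjusted p = 0.0102), a call lost without replicate 3 of siControl or replicate 2 of siChst7 (edgeR adjusted p = 0.0502 and 0.0559). Itgb7 had 8.28, 10.3 and 9.42 CPM against 13.1, 13.7 and 11.2 CPM (0.44 ± 0.12, edgeR adjusted p = 0.0155). That call was lost without replicate 1 of siControl or replicate 1 or 2 of siChst7 (edgeR adjusted p = 0.055 to 0.0926).

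Several genes with large differences at day 0 did not pass at day 1. Lims2 stood at 46.8 ± 2.55 CPM in siControl and 44.3 ± 0.835 CPM with siChst7 (log2FC -0.08 ± 0.06). Itga7 stood at 78.2 ± 2.31 and 75 ± 3.52 CPM (-0.06 ± 0.05), Actn1 at 1496 ± 32.4 and 1541 ± 33.5 CPM (0.04 ± 0.05) and Tln1 at 848 ± 25.4 and 848 ± 22.6 CPM (-0.001 ± 0.05). Ilk (0.13 ± 0.05), Bcar1 (0.11 ± 0.05) and Flna (-0.06 ± 0.04) were not called either, although a fit of the compared libraries alone called all 3. Of the other pathway genes, 10 ligands were higher and 1 lower of 22, among them osteopontin, Spp1 (1.403 ± 0.13), and Col1a2 (0.52 ± 0.05). Of all genes tested, 8.86% were higher and 8.72% lower. Signalling partners gave 4 higher and 3 lower of 23, with the endocytic adaptor Dab2 lower (-0.77 ± 0.04), and actin partners 0 higher and 3 lower of 20.

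At day 3 the called genes were again mostly lower, by small steps. With siChst7, 14 of the 35 were lower and 1 higher, where 21.6% of all genes tested were lower and 23.1% higher, and the median was -0.08 against 0.01. All 3 laminin chains, both talins and 4 of 7 actin linkers were among the 14. Without replicate 2 of siChst7 the counts were 19 lower and 2 higher, and without replicate 1, the library high in Rn45s, they were 11 and 1. Without replicate 3 they were 14 and 0.

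Gene length moved with the day 3 difference. Across the genes tested, the rank correlation between length and log2FC was -0.33 at day 3, against 0.05 at day 0 and -0.07 at day 1, a description over genes that share the same libraries. The 35 are long, with a median of 4937 bases against 2881 for genes tested, and 32 are longer than the median gene. Among the 3073 genes between 3773 and 6093 bases, which spans the middle 50% of the 35 by length, 32.1% were lower, 14.6% were higher and the median was -0.08. A fit with the length trend removed, added after the data were seen, called 14 of the 35 lower and 3 higher, with 26.1% of all genes lower. At day 0 the same length window held 15.3% lower genes, with a median of 0.02. The part of the length trend in the day 3 result was not tested beyond these values.

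**Figure D3:**
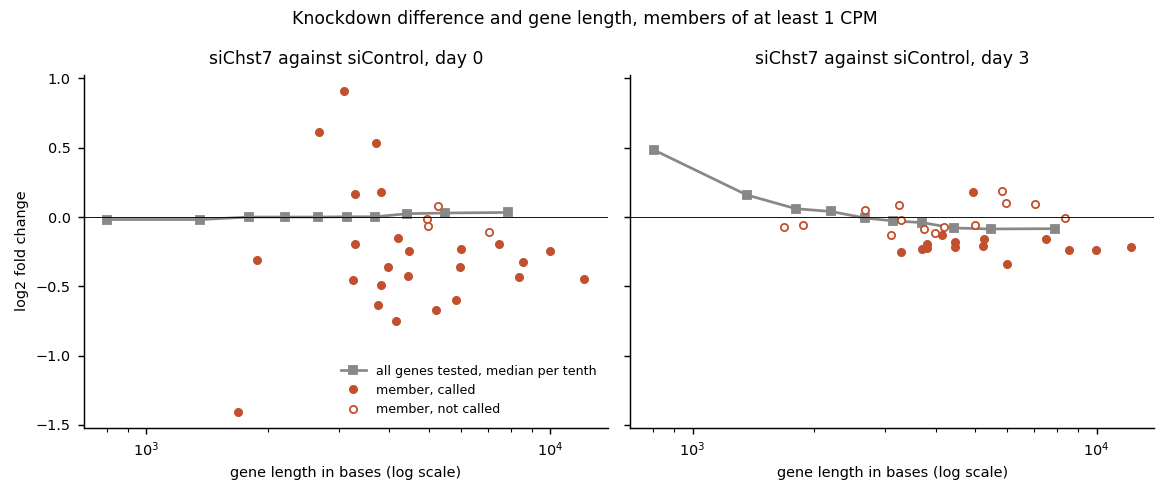
Log2FC of siChst7 against siControl (vertical axis) by gene length in bases (log axis) at day 0, left, and day 3, right, for the adhesion genes of at least 1 CPM; filled points were called. The grey line joins the medians of all genes tested in 10 bins of length: it stays between -0.02 and 0.03 at day 0 and falls from 0.48 to -0.08 at day 3.

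Itga6, which with Itgb1 or Itgb4 binds laminin, had 34, 37.5 and 33.5 CPM in siControl at day 3 and 27.8, 28.3 and 26.9 CPM with siChst7. All siChst7 libraries were below all controls, at -0.34 ± 0.07 (edgeR adjusted p = 0.000367). Itgb5 had 179, 162 and 183 CPM against 145, 153 and 144 CPM (-0.25 ± 0.05, edgeR adjusted p = 0.000291), having been higher at day 0. Tln1 had 709.7, 696 and 703 CPM against 567, 651 and 572 CPM, its replicate 2 of siChst7 closest to the controls (-0.24 ± 0.05, edgeR adjusted p = 0.000666). Tns1 had 269, 245 and 272 CPM against 219, 228 and 221 CPM (-0.235 ± 0.06, edgeR adjusted p = 0.00197), and Vcl had 586, 587 and 593 CPM against 503, 519.7 and 504 CPM (-0.21 ± 0.04, edgeR adjusted p = 0.000203). Neither gene's groups overlapped. Vcl, Tns1, Tln2 and Parva were lower on all 3 days.

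Lims1 was the 1 gene higher at day 3, with 317, 313 and 310.1 CPM against 378, 329.5 and 359.6 CPM (0.18 ± 0.05, edgeR adjusted p = 0.00281), a call lost without replicate 3 of siChst7 (edgeR adjusted p = 0.056). Itga5 had 313, 306 and 304 CPM against 259, 293 and 263 CPM, lower at -0.18 ± 0.05 (edgeR adjusted p = 0.00473) after being higher at day 1. Itga7 had 109, 108 and 114 CPM against 96.6, 105 and 101 CPM (-0.13 ± 0.05, edgeR adjusted p = 0.0356), a call lost without replicate 1 or 3 of siControl or replicate 1 of siChst7, with only the compared libraries and with the length trend removed (edgeR adjusted p = 0.0531 to 0.153). Itgb1 (-0.07 ± 0.04, edgeR adjusted p = 0.116) was not called, but was with DESeq2 size factors, library totals, the DESeq2 test, no filter, or without replicate 2 of siChst7. Ilk (-0.06 ± 0.05), Bcar1 (-0.02 ± 0.05), Flna (-0.01 ± 0.04), Lims2 (-0.08 ± 0.06) and Fermt2 (0.09 ± 0.04) did not pass. With the length trend removed Ilk did (-0.155, edgeR adjusted p = 0.00959), and so it did without replicate 2 of siChst7.

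The counts of other pathway genes at day 3 stand beside 21.6% lower and 23.1% higher of all genes tested. Among them, 9 actin partners were lower and 3 higher of 20, with Evl (-0.36 ± 0.05), an Ena/VASP protein gene, lower and Myl9 higher (0.39 ± 0.06). Myl9 was no longer called once the length trend was removed (0.063, edgeR adjusted p = 0.2535). Signalling partners gave 12 lower and 6 higher of 23, with Dab2 lower again (-0.835 ± 0.04). Ligands gave 7 lower and 5 higher of 22, with Fn1 now lower (-0.47 ± 0.05), Npnt lower (-0.52 ± 0.05) and Spp1 higher (1.81 ± 0.14). The smooth muscle markers summed to 2819 to 2934 CPM in siControl and 2978 to 3655 CPM with siChst7 at day 3, and 2 of 5 were higher. The cardiomyocyte markers summed to 771 to 840.1 and 926 to 1124 CPM, with 4 of 5 tested higher and 0 lower. Fibroblast markers summed to 9685 to 10285 and 8673 to 9247 CPM, with 1 higher and 3 lower of 5 tested. The part of these markers, and of the lower Mef2c, Gata4 and Tbx5 with siChst7, in the day 3 result was not tested.

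In siControl cells most of the adhesion genes changed over the 3 days, in both directions. From day 0 to day 1, 13 of the 35 rose and 17 fell, where 29.5% of all genes tested rose and 30.8% fell. From day 1 to day 3, 15 rose and 15 fell, where 22.8% of all rose and 32.3% fell. From day 0 to day 3, 13 rose and 15 fell, against 33.9% and 39.5% of all. The shares at day 3 against day 0, 37.1% and 42.9% of the 35, were near those of all genes. The rises include Itga2 in each comparison, Itga4 from day 0 to day 1 and Itga9 in both comparisons that end at day 3. Itga4 is also among the falls from day 1 to day 3. These genes passed the filter on low counts mainly through the groups where they were high, so that a difference had to appear. Itga11, at 6, 8 and 14 counts at day 1, is among the falls to day 1 and the rises after it. Itgb4 is among the falls from day 0 to day 3, on 38, 12 and 38 against 11, 17 and 13 counts, though its groups overlapped. Library-total scaling shifted the day 3 against day 0 median of all genes from -0.05 to 0.10 and gave 17 rises and 13 falls among the 35, and from day 1 to day 3 it gave 16 and 10.

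Among the alpha subunits, all 3 laminin chains rose by day 3 against day 0, and the RGD chains parted, with Itga8 higher and Itga5 and Itgav lower. Itga8 had 2.33, 2.28 and 2.05 CPM at day 0, 8.91, 7.53 and 9.13 CPM at day 1 and 30.5, 29.4 and 33.2 CPM at day 3. No day overlapped another, and day 3 stood at a log2FC of 3.804 ± 0.12 over day 0 (edgeR adjusted p = 6.41e-18). Itga1 rose from 3.8, 3.52 and 4.28 CPM to 25.4, 20.9 and 25.1 CPM by day 3 (2.62 ± 0.11, edgeR adjusted p = 7.32e-16). Itga7 rose from 52.5, 52.7 and 56.1 CPM to 109, 108 and 114 CPM. That is a log2FC of 1.03 ± 0.05 (edgeR adjusted p = 1.5e-14), with Itga3 at 1.54 ± 0.05 and Itga6 at 1.61 ± 0.07. Itga5, from 391, 362 and 369.9 CPM to 313, 306 and 304 CPM, fell by a small step (-0.28 ± 0.05, edgeR adjusted p = 2.28e-05), as did Itgav (-0.53 ± 0.04).

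Expressed per length, the RGD chains held 87.3% ± 0.449 of the alpha sum at day 0, 81.4% ± 0.147 at day 1 and 68.4% ± 0.406 at day 3 (SD, n = 3). The laminin chains held 12.2% ± 0.437, 17.7% ± 0.122 and 29% ± 0.375. Collagen chains went from 0.466% ± 0.0211 to 2.44% ± 0.231, mostly Itga1. The sum of alpha chains was 422 ± 12.8 TPM at day 0 and 480.4 ± 5.92 TPM at day 3, a smaller change than in Itgb1, from 1021 ± 20.3 to 1687 ± 5.33 TPM. The ratio of alpha sum to Itgb1 thus went from 0.413 ± 0.021 to 0.285 ± 0.00377. With siChst7 the shares followed the same course, RGD chains holding 88.7%, 82.8% and 69.8% on the 3 days. Laminin chains held 10.7%, 16.5% and 27.3%, each share below every siControl library of its day. A share also depends on the other chains. At day 1 no laminin chain was called with siChst7, and the Itga5 share was 51.3% ± 0.539 against 48.2% ± 0.231 in siControl. At day 0 the Itga7 share was lower with siChst7 (4.96% against 7.26%) and the Itga3 share higher (4.69% against 3.86%).

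**Figure D4:**
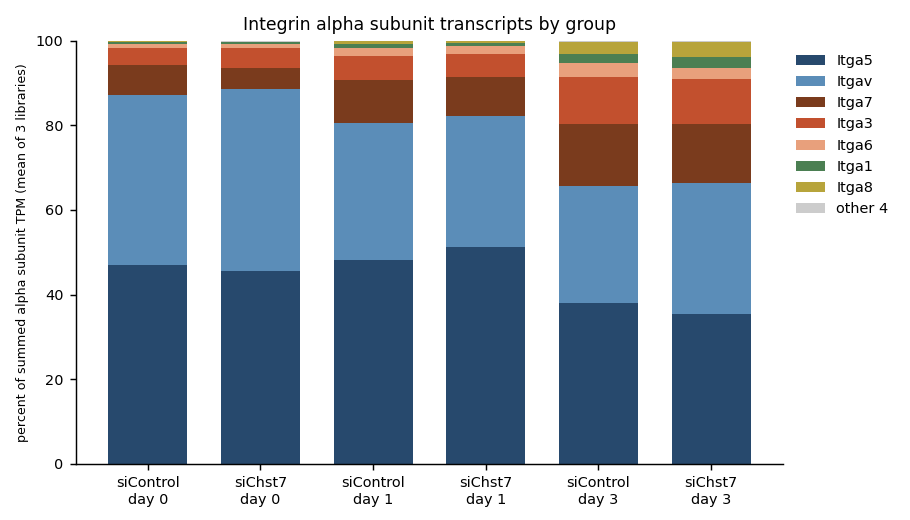
Share of each integrin alpha gene in the summed alpha subunit TPM (percent, mean of 3 libraries) in the 6 groups. The blue bands of Itga5 and Itgav shrink from day 0 to day 3 in siControl (46.9% to 38.1% and 40.2% to 27.5%), and the bands of Itga7, Itga3, Itga6, Itga8 and Itga1 widen.

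Among the beta subunits Itgb7 fell most. It had 43.5, 40.8 and 41.6 CPM at day 0, 8.28, 10.3 and 9.42 CPM at day 1 and 1.89, 1.57 and 1.58 CPM at day 3. The 3 days did not overlap, and the day 3 level stood at a log2FC of -4.65 ± 0.15 (edgeR adjusted p = 9.43e-18) against day 0. Its share of the beta sum went from 3.15% ± 0.169 to 0.0909% ± 0.00973. Itgb8 also fell by day 1 (9.01, 10.5 and 9.92 to 5.6, 7.44 and 6.83 CPM, log2FC -0.56 ± 0.12, edgeR adjusted p = 0.000429). Itgb5 dipped, with 162, 153 and 155 CPM at day 0, 93, 88.2 and 95.2 CPM at day 1 (-0.77 ± 0.05, edgeR adjusted p = 7.7e-12) and 179, 162 and 183 CPM at day 3. Itgb1 rose to 2662, 2646 and 2684 CPM at day 3 from 1752, 1836 and 1847 CPM (0.56 ± 0.04, edgeR adjusted p = 5.98e-12). Leukocyte markers summed to 22.5 to 25.9 CPM at day 0, 6.23 to 6.83 CPM at day 1 and 11.2 to 13.3 CPM at day 3, with Adgre1 at 0 on each day, and their part in the Itgb7 course was not tested.

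**Figure D5:**
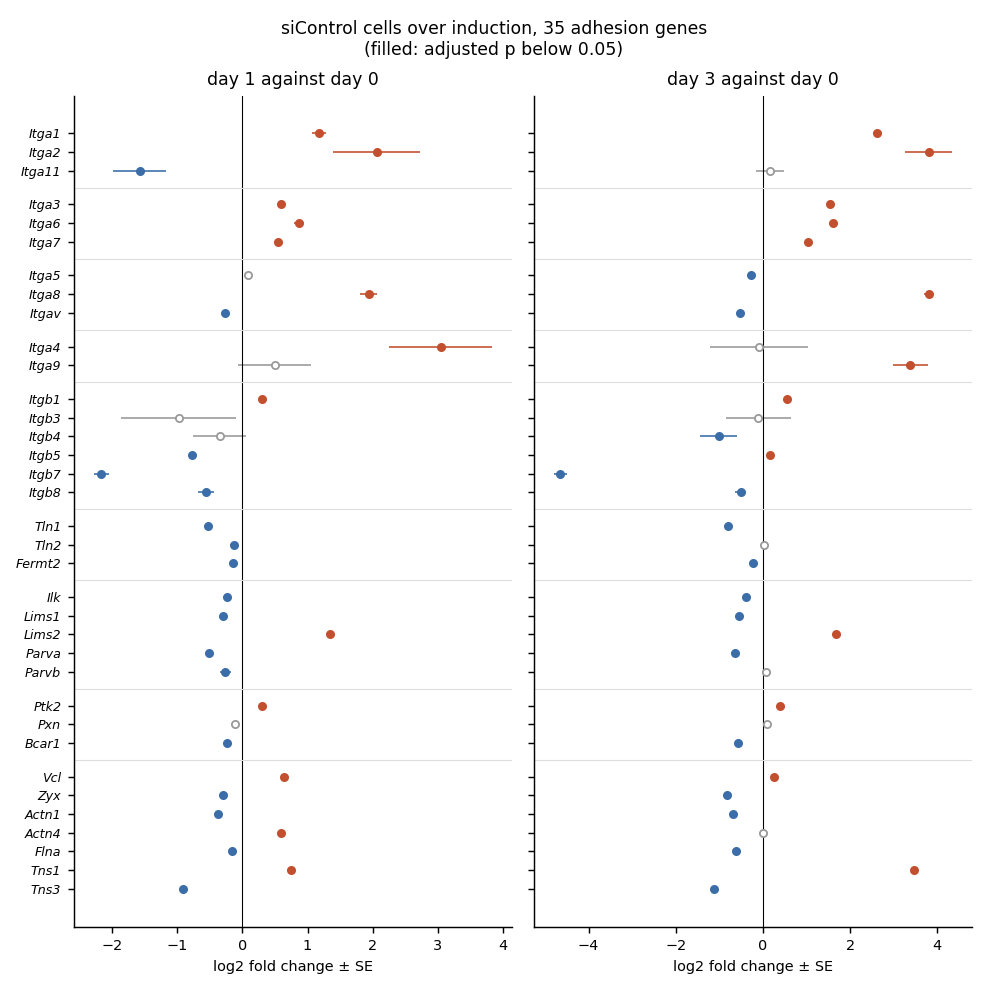
Log2FC of the 35 genes in siControl cells, day 1 against day 0 (left) and day 3 against day 0 (right), each panel with its own horizontal axis and bars of 1 SE. Filled points were called (red higher, blue lower); Itga8, Tns1 and Itga1 lie far right at day 3 and Itgb7 far left.

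In the plaque, the 2 tensins took opposite courses. Tns1 (chromosome 1, 73910232 to 74124548), which binds actin and the beta tail of integrins in mature fibrillar adhesions, went from 24, 24.2 and 22.8 CPM at day 0 to 39.9, 37.8 and 41.8 CPM at day 1 and 269, 245 and 272 CPM at day 3. Most of the rise came after day 1 (log2FC 2.72 ± 0.06 from day 1 to day 3, 3.47 ± 0.07 from day 0, edgeR adjusted p = 1.1e-21). Tns3 fell from 894, 900 and 919 CPM to 477, 489 and 476 CPM at day 1 and 413, 419.6 and 407 CPM at day 3 (-1.13 ± 0.04, edgeR adjusted p = 3.63e-16). At day 3 Tns3 was still the more abundant per length, at 147 ± 2.82 against 69.7 ± 3.74 TPM.

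The 2 PINCH genes also took opposite courses. Lims2 rose from 19.1, 18.2 and 17.8 CPM at day 0 to 49.2, 47.1 and 44.1 CPM at day 1 and 54.5, 59.1 and 61.1 CPM at day 3 (1.67 ± 0.06 over day 0, edgeR adjusted p = 1.23e-16). Lims1 fell by 0.54 on the log2 scale by day 3, yet stayed above Lims2 per length (168 ± 2.16 against 91.6 ± 5.23 TPM). Ilk went from 224, 227 and 237 to 174, 174 and 178 CPM (-0.39 ± 0.05, edgeR adjusted p = 1.64e-07) and Parva fell too (-0.65 ± 0.05). Parvb was not called at day 3 against day 0 (0.06 ± 0.08).

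Of the 7 actin linkers, 4 fell and 2 rose by day 3 against day 0. Zyx had 318, 296 and 305 CPM at day 0 and 177, 169 and 173 CPM at day 3 (-0.82 ± 0.05, edgeR adjusted p = 3.73e-12). The activator Tln1 went from 1248, 1214 and 1201 to 709.7, 696 and 703 CPM (-0.80 ± 0.05, edgeR adjusted p = 3.11e-12). Flna went from 4817, 4882 and 4903 to 3216, 3100.3 and 3154 CPM (-0.625 ± 0.04, edgeR adjusted p = 4.63e-12). None of these 3 overlapped between days, and Actn1 fell likewise (-0.685 ± 0.05). Tns3 and Tns1, described above, fell and rose. Vcl was highest at day 1 and stood above day 0 at day 3 (0.25 ± 0.04). Actn4 had 1214, 1229 and 1259 CPM at day 0, 1906, 1871 and 1798 CPM at day 1 and 1238, 1234 and 1254 CPM at day 3 (-0.58 ± 0.05 from day 1 to day 3, edgeR adjusted p = 3.27e-10), and did not pass at day 3 against day 0 (0.01 ± 0.045). Bcar1 fell from 271, 256 and 262 to 178, 172 and 180.5 CPM (-0.57 ± 0.05, edgeR adjusted p = 1.28e-09), while Ptk2 rose (0.40 ± 0.04) and Pxn was not called (0.10 ± 0.05).

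Other pathway genes also moved in both directions. Of all genes tested, 29.5% rose and 30.8% fell by day 1, and 33.9% rose and 39.5% fell by day 3 against day 0. Of 22 ligands tested, 6 rose and 16 fell by day 1, and 9 rose and 12 fell by day 3 against day 0. Npnt, the ligand of Itga8, went from 45.7 ± 2.51 to 579 ± 19.2 CPM at day 1 (3.66 ± 0.05), and the laminin chain Lama2 from 0.0597 ± 0.025 to 29.8 ± 1.11 CPM at day 3, on a handful of counts at day 0. Vcam1, a ligand of Itga4 receptors, fell (-3.22 ± 0.07 at day 3). Signalling partners gave 8 rises and 10 falls of 23 by day 3, with the talin binder Kank1 up (3.17 ± 0.05) and Sdc4 down (-1.71 ± 0.04). Actin partners gave 7 rises and 12 falls of 20, with Enah up (1.15 ± 0.04) and the zyxin relative Lpp down (-0.98 ± 0.05). Cardiomyocyte markers summed to 771 to 840.1 CPM at day 3 against 11.2 to 13.4 CPM at day 0 and smooth muscle markers to 2819 to 2934 against 1347 to 1474 CPM, and their part in these courses was not tested.

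Whether the knockdown difference itself changed between days was tested by interaction terms in the same fit. Induction, time in culture, time since transfection and the strength of the knockdown cannot be told apart in these terms. Chst7 with siChst7 stood at 0.438 ± 0.188 CPM at day 0, 0.755 ± 0.185 CPM at day 1 and 2.16 ± 0.706 CPM at day 3. Its log2FC against siControl was -5.469, -5.647 and -3.542 on these days, weaker at day 3 by a called interaction. The part of this in the interaction terms was not tested. Between day 0 and day 1 the siChst7 difference moved upward in 15 of the 35 genes and downward in 1, Itgb8, where 6.2% of all genes tested moved upward and 5.5% downward. The 15 include 6 of 7 actin linkers, such as Actn1 (0.68 ± 0.07), the activators Tln1 (0.32 ± 0.07) and Fermt2 (0.65 ± 0.05), Lims2 (1.32 ± 0.09, edgeR adjusted p = 1.49e-09) and Itga7 (0.69 ± 0.07, edgeR adjusted p = 5.62e-07). Itgb8 moved down, by -0.84 ± 0.17 (edgeR adjusted p = 0.002). Without replicate 3 of siChst7 at day 0 the counts were 17 upward and 1 downward.

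Between day 0 and day 3 the difference moved upward in 15 genes and downward in 5, where 20.7% of all moved upward and 18.1% downward. With library totals the counts were 7 and 6, with DESeq2 size factors 11 and 6, with the compared libraries alone 9 and 5, and with no filter on low counts 11 and 6. Leaving out replicate 1, 2 or 3 of siChst7 at day 3 gave 15 and 5, 15 and 6, and 11 and 5. Without replicate 3 of siChst7 at day 0 it was 16 and 5. Lims2 (1.33 ± 0.09, edgeR adjusted p = 5.52e-10) and Itga8 (0.79 ± 0.18, edgeR adjusted p = 0.00164) moved upward most among genes of at least 5 CPM. Itgb8 (-1.04 ± 0.17, edgeR adjusted p = 5.67e-05) and Parvb (-0.77 ± 0.11, edgeR adjusted p = 2.12e-05), both higher at day 0, moved downward most.

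Between day 1 and day 3 the difference moved upward in 2 genes and downward in 10, where 15.3% of all moved upward and 13.1% downward. Without replicate 1 of siChst7 at day 3 the counts were 1 and 7, without replicate 2 they were 2 and 14, and without replicate 3 they were 2 and 9. Itga8 (0.69 ± 0.14, edgeR adjusted p = 0.00138) and Itga1 (0.41 ± 0.14, edgeR adjusted p = 0.0299) were the 2, and Itga1 lost its call under several alternatives, among them leaving out replicate 1 or 2 of siControl or of siChst7 at day 1 (adjusted p in edgeR up to 0.106). Parvb (-0.44 ± 0.12, edgeR adjusted p = 0.00779) and Itga6 (-0.37 ± 0.10, edgeR adjusted p = 0.00798) moved downward most. Among other pathway genes, 12 of 20 actin partners moved upward and 0 downward between day 0 and day 1, and 13 moved upward and 3 downward between day 0 and day 3. The shares of all genes tested were 6.2% and 5.5% between day 0 and day 1, and 20.7% and 18.1% between day 0 and day 3.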

How the data were processed

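The deposited table holds raw read counts per gene, made by the authors with HISAT2, Subread featureCounts and DESeq2 on mm10, per the submitters' processing notes, and 1 gene length column. For tool versions, strand setting, multi-mapping reads and annotation release, nothing is stated in the labels. Of the gene names, 25 were turned into dates and were kept as they stand. The 35 genes, the pathway and marker lists and the tests were chosen with earlier results of these data known.

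Counts of all 18 libraries were fitted together in edgeR 4.0.16 (R 4.3.3, limma 3.58.1), after filterByExpr and TMM scaling, with 1 mean per group and 12 residual degrees of freedom. The quasi-likelihood F-test was used, with Benjamini-Hochberg adjustment over 13802 genes and a threshold of 0.05. SEs of log2FC were worked back from the F-test. Common dispersion came to 0.00331 (coefficient of variation between replicates 5.75%). The fit was also run on simulated data, and the outcome is not reported here. CPM are TMM-scaled, and ± beside a CPM or TPM is the SD of 3 libraries. The replicates are separate samples per the labels, and p-values set a difference against the spread between them. All are of the 1 line, so that this spread does not cover other lines. Positions come from RefSeq (GRCm38) and exon overlaps from GENCODE M21. Names Ccn1 and Ccn2 were matched through RefSeq synonyms (2 symbols). Alternatives were DESeq2 1.42.0, its size factors, library totals, no filter, the compared libraries alone, a replicate block, leaving out each library and, added after the data were seen, an offset for the trend with length. Values per library are given for called genes of at least 5 CPM with the 4 largest log2FC each way in a comparison (2 each way for day 3 against day 1 and for interactions), and for the most abundant gene per length of each role group. Other members are named with fewer values. Pathway genes were named by smallest p, with the most abundant uncalled gene of a list. One pathway gene that this rule names is not reported here.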

Additional observations from a re-analysis of the deposited data

Results flagged for a closer look

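The siChst7 difference was not the same on all days for several adhesion genes, by the interaction terms of the edgeR fit (Benjamini-Hochberg adjusted p). From day 0 to day 1 it moved by 1.324 on the log2 scale for Lims2 (adjusted p = 1.49e-09), by 0.693 for Itga7 (adjusted p = 5.62e-07) and by -0.837 for Itgb8 (adjusted p = 0.002). From day 0 to day 3 the move was 1.328 for Lims2 (adjusted p = 5.52e-10), 0.787 for Itga8 (adjusted p = 0.00164), -1.044 for Itgb8 (adjusted p = 5.67e-05) and -0.768 for Parvb (adjusted p = 2.12e-05). From day 1 to day 3 it was 0.691 for Itga8 (adjusted p = 0.00138), 0.413 for Itga1 (adjusted p = 0.0299), -0.44 for Parvb (adjusted p = 0.00779) and -0.372 for Itga6 (adjusted p = 0.00798).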

How the results depend on the processing

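Of 1755 alternative values for 130 named log2FC, 1686 kept direction and side of the threshold, 39 lost the call, 15 gained it and 15 changed sign. The count of called genes at day 1 went from 11 to 18 with the compared libraries alone, and that of the day 3 against day 0 interaction from 20 to 13 with library totals. The cause was not tested. Leaving out 1 library gave 22 to 24 called genes for the knockdown at day 0, 8 to 10 at day 1 and 12 to 21 at day 3. For siControl it gave 29 to 30 (day 1 against day 0), 28 to 30 (day 3 against day 1) and 26 to 28 (day 3 against day 0), and for the interactions 16 to 18, 16 to 21 and 8 to 16. At day 3 the knockdown gave 17 lower and 1 higher with DESeq2 size factors, library totals, the DESeq2 test or no filter. Signs changed for uncalled values only: Itga9 at day 0 (-0.858 to 0.464 leaving out 1 library) and day 3 (-0.248 to 0.149), Tln1 at day 1 (0.013 with no filter, 0.017 with the length offset, -0.023 to 0.021 leaving out 1 library), Bcar1 at day 3 (-0.093 to 0.025), Flna at day 3 (0.042 with the length offset, -0.054 to 0.014 leaving out 1 library), and with library totals Fn1 (0.007) and Crk (0.003) at day 0. Vasp at day 1 lost its call with no filter or without 1 of 3 libraries (adjusted p = 0.0592 to 0.0991, edgeR).

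Whether replicate numbers pair the libraries was not settled. The 45 same-numbered pairs had correlations of -0.066 to 0.068, and other pairs -0.069 to 0.124. Yet 10 of 18 libraries correlated best with one of their own number. With a replicate block the called genes numbered 26, 11 and 15 for the knockdown at days 0, 1 and 3, 30, 31 and 28 for siControl, and 16, 20 and 12 for the interactions. Depth limits the 6 genes below 1 CPM.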

Other observations

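Some integrin genes were at the edge of detection. Their counts are given here with no test, although their calls enter the numbers of rises and falls in siControl above. Itga2, a collagen receptor chain, had 4, 1 and 5 counts in the siControl libraries at day 0 and 44, 56 and 36 at day 3. Itga9 had 14, 2 and 6 counts at day 0 and 45, 105 and 74 at day 3. Itga4 had 2, 4 and 2 counts at day 0, 16, 17 and 20 at day 1 and 4, 0 and 3 at day 3. These 3 genes passed the filter on low counts mainly through the groups where they were high, so that a difference between days had to appear. Itga4 shares 1124 exon bases with Cerkl on the other strand. Itgb3 stayed at or below 20 counts in every library and was not called in any of the 9 comparisons.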
